A study of Mus musculus with 6 samples.

Results

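The genes of oxidative phosphorylation were taken from the deposited RNA-seq table by their symbols: the nuclear subunits of complexes I to V, cytochrome c, and the protein genes of the mitochondrial genome, with symbols ending in -ps left out. This gave 104 of 55401 genes in the table, which carry 103 symbols because Atp5o is listed under 2 identifiers. The annotation gives 4 of them (Ndufb4c, Ndufs6b, Ndufa11b and Cox6c2) as processed pseudogenes, 3 of which were tested, with 0 called and 0 at p under 0.05 before adjustment by the authors' DESeq2 test. Of the 104, 94 had an adjusted p-value (these are called tested), 7 were listed at 0, and mt-Atp6, Cox4i2 and Ndufa11b had mean counts below the level at which the authors' filter gave an adjusted p-value. Their RNA was compared between iMEF cells after 24 h with dTAG-13 and untreated iMEF cells, with 3 libraries per group in the labels, while the study's legend gives fewer replicates. iMEF are immortalised mouse embryo fibroblasts; the comparison used the clone NG3, so the cells stand for a single clone. In all of them, treated or not, exon 4 of both floxed Ash2l alleles had been deleted by a Cre-ER recombinase with 4-hydroxytamoxifen, and a lentiviral human ASH2L fused to FKBP12-F36V and an HA tag took the place of the mouse protein. dTAG-13 is a PROTAC that binds the tag and sends the fusion to the proteasome, and ASH2L is a shared subunit of the KMT2 enzymes that methylate histone H3 at lysine 4. The untreated libraries carry the title WT in the labels, although they have this same genotype. No library came from dTAG-13-treated cells without the tag, so effects of the compound and of ASH2L loss cannot be told apart.

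Oxidative phosphorylation takes place in the inner mitochondrial membrane. Complex I (NADH dehydrogenase) and complex II (succinate dehydrogenase) pass electrons to ubiquinone, complex III passes them to cytochrome c, and complex IV (cytochrome c oxidase) to oxygen. Complexes I, III and IV pump protons, and complex V (ATP synthase) uses their return to make ATP. The core membrane subunits of complexes I, III, IV and V are encoded by the mitochondrial genome and transcribed there by a separate polymerase, while all other subunits, and all of complex II, come from nuclear genes.

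The table holds 1 mean normalized count per gene over both groups, the change after dTAG-13 as a log2 ratio to untreated cells that the authors shrank, its standard error (SE) and p-values, so values of single libraries cannot be shown and the depth of each library is unknown. Counts had been scaled to spike-in RNA that was dosed by cell number. In bulk RNA, a shift in the make-up of the culture and a change of RNA per cell cannot be told apart. Fibroblast identity was visible in the collagen genes Col1a2 (mean normalized count 109792) and Col1a1 (86116), and 12 of 12 fibroblast markers were tested, with Lum at 1.73 the weakest. Of these 12, 5 were lower and 2 higher after dTAG-13 (58.3% called, against 19.9% of all tested genes). Among them, Thy1 was at −1.36 ± 0.20 (SE) and Fn1 at 0.93 ± 0.16 on the log2 scale. Col1a1 and Col1a2 were themselves among the 5 lower, at −0.50 ± 0.16 and −0.42 ± 0.16. Of 11 muscle, 6 brown fat, 8 germ cell and 8 epithelial, endothelial or blood markers, 9, 6, 8 and 7 had a mean normalized count below 10; Acta1 at 168, Tnni1 at 28.8 and Cd68 at 25.4 were the exceptions. One of these markers was called, the germ cell gene Ddx4, higher at 2.47 ± 1.30 with a mean normalized count of 6.38. The part of these marker changes in the values that follow was not tested.

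Few transcripts of the respiratory chain passed the test after 24 h of dTAG-13. Of the 94 tested genes, 6 were higher, 1 was lower and 87 were not called at an adjusted p under 0.05 in the authors' DESeq2 test. This is 7.45% of the tested oxidative phosphorylation genes, against 19.9% of all 16773 tested genes. By direction, 7.45% of all tested genes were higher and 12.5% lower. Adjusted p-values of single genes are from the same test unless another zero point is named. Among genes whose mean normalized count reached 500, where the median SE was 0.16, against 0.26 over all tested genes, 7 of 73 oxidative phosphorylation genes (9.59%) were called, against 27.0% of all 3635 such genes. The median log2 fold change of the 94 genes was 0.09, against −0.02 over all tested genes. Of the 94 estimates, 64 were above 0 (68.1%) and 30 below, against 47.7% above 0 over all tested genes. Their 5th and 95th percentiles were −0.20 and 0.41 on the log2 scale, against −1.06 and 0.71 over all tested genes. An interval of 95% from the deposited log2 fold change and SE lay within ±1 for 91 of the 94 genes (96.8%), against 11563 of 16773 tested genes (68.9%). The 3 with wider intervals were the weakly listed Cox7b2, Ndufa4l2 and Cox6a2, at mean normalized counts of 1.73, 2.06 and 16.7. Estimate and SE are shrunken, which pulls genes with few counts toward 0, so for them an interval within ±1 does not bound the change. Ndufs6b, at a mean normalized count of 4.00, had an interval of −0.75 to 0.90. Among genes whose mean normalized count reached 500, the interval lay within ±1 for all 73 oxidative phosphorylation genes, against 86.9% of all 3635. Their 5th and 95th percentiles were −0.16 and 0.43, against −0.93 and 0.54.

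**Figure D1:**
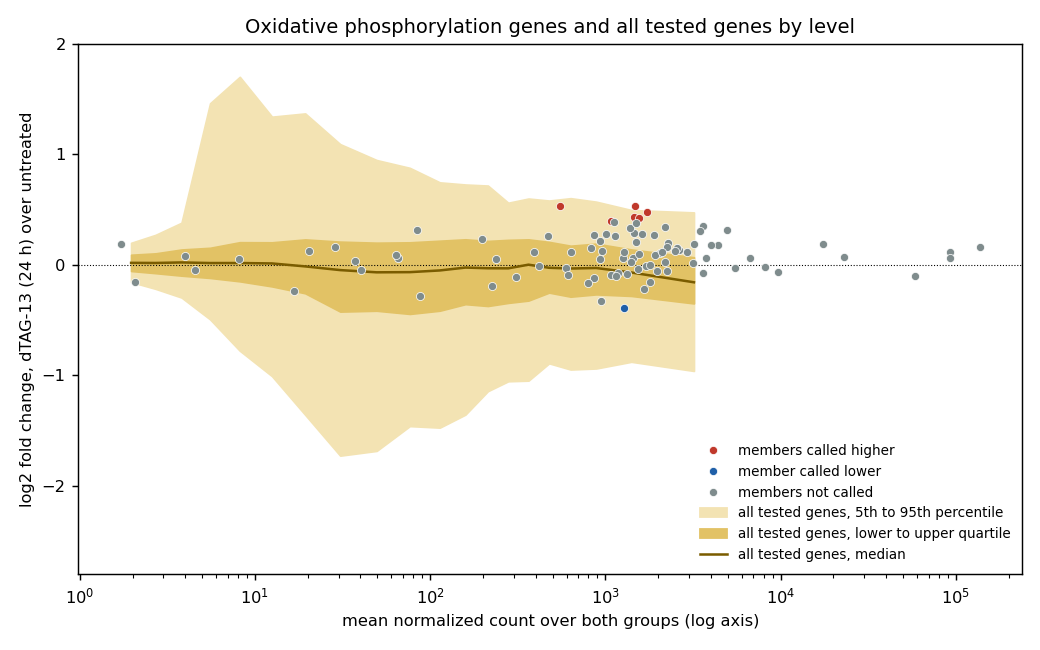
Each point is 1 tested oxidative phosphorylation gene, with its mean normalized count over both groups on a log axis and its deposited log2 fold change (dTAG-13 at 24 h against untreated cells) on the vertical axis; bands and line give the percentiles of all tested genes in 20 bins of equal number by mean count. The points stay between −0.39 and 0.53, and the 7 called genes had mean counts between 550 and 1733.

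The zero point of the log2 scale bears on these counts. The median log2 fold change was −0.05 over genes whose mean normalized count reached 100 and −0.19 over 15 housekeeping reference genes. All 15 housekeeping estimates were below 0, and 7 had p under 0.05 before adjustment by the authors' DESeq2 test. Of these genes 2 were called lower (13.3%, against 12.5% of all tested genes), Ppia at −0.81 ± 0.21 and Actb at −0.42 ± 0.14. Whether the housekeeping genes are a stable reference here was not tested. With the first as the zero point, 10 oxidative phosphorylation genes were higher and 0 lower, against 8.50% of all tested genes higher and 11.2% lower. With the housekeeping genes as the zero point, 24 were higher and 0 lower, against 13.8% of all tested genes higher and 8.84% lower. Without adjustment, 15 oxidative phosphorylation genes had p under 0.05 with a positive and 2 with a negative estimate in the authors' DESeq2 test, against 12.0% and 17.9% of all tested genes. Both directions together, 13 were called at an adjusted p under 0.1, against 25.0% of all tested genes, and 2 under 0.01, against 13.5%. With genes whose mean normalized count reached 100 tested alone, 9 of 80 were called, against 29.9% of all 8236 such genes. With adjustment over every gene that had a p-value, 5 of 97 were called, against 12.4% of all 24212. The 6 genes called higher were called higher from either zero point, and Ndufa12, the one called lower, was not called from either (adjusted p = 0.0915 and 0.323). Both zero points lie below 0, so the move by itself favours higher calls and weakens lower ones. These outcomes are therefore no separate support for the higher calls, nor evidence against the lower call.

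Of the 7 called genes, 6 belonged to complex I, the L-shaped enzyme whose matrix arm oxidises NADH and whose membrane arm pumps protons. Complex I makes up 37 of the 94 tested genes, and 6 of 37 is 16.2%, against 19.9% of all tested genes. Its 37 tested genes had 5 higher and 1 lower, and a median log2 fold change of 0.11; without the pseudogenes Ndufb4c and Ndufs6b, 35 were tested, with the same calls and the same median. Ndufv3 (ENSMUSG00000024038.17, GRCm38 chromosome 17, 31520115 to 31531331), an accessory subunit at the NADH-oxidising tip, rose by 0.53 ± 0.15 (SE) on the log2 scale, 1.45-fold, adjusted p = 0.00204 by the authors' DESeq2 test. Ndufb2 (ENSMUSG00000002416.13, chromosome 6, 39592574 to 39603382), a small membrane-arm subunit, rose by 0.53 ± 0.16 (adjusted p = 0.00395). Ndufa6 (ENSMUSG00000022450.6, chromosome 15, 82350140 to 82354322), an accessory subunit of the matrix arm with an LYR motif, rose by 0.48 ± 0.16 (adjusted p = 0.0122). Ndufv1 (ENSMUSG00000037916.14, chromosome 19, 4007384 to 4012806) encodes the core subunit that binds NADH and FMN and rose by 0.44 ± 0.17 (adjusted p = 0.0294). Ndufa11 (ENSMUSG00000002379.7, chromosome 17, 56717767 to 56722141), a membrane-embedded accessory subunit, rose by 0.40 ± 0.17, just inside the threshold (adjusted p = 0.0494). Ndufa12 (ENSMUSG00000020022.17, chromosome 10, 94198720 to 94221443), a matrix-arm accessory subunit related to the assembly factor NDUFAF2, was the gene called lower, at −0.39 ± 0.16 (adjusted p = 0.0497), 1.31 times lower. Thus genes of the same arm lay at both ends of the range: Ndufv3, Ndufa6 and Ndufv1 higher and Ndufa12 lower.

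The other complex I genes formed a continuous range. Just outside the threshold, Ndufa1, a membrane-arm subunit needed for assembly, had a log2 fold change of 0.39 ± 0.17 (adjusted p = 0.0601) and was called higher from both other zero points. The membrane-arm subunits Ndufb5, Ndufb8, Ndufb10, Ndufb11, Ndufb3 and Ndufb4 lay between 0.26 and 0.29, with SE of 0.15 to 0.18, and passed as higher only with the housekeeping genes as the zero point (adjusted p of 0.0474 or less). Across the 19 tested membrane-arm genes the median was 0.23, with 2 genes higher and 0 lower. Of their estimates 16 were above 0 (84.2%), against 47.7% over all tested genes. Without adjustment, 4 had p under 0.05, all with positive estimates. The 16 matrix-arm genes had a median of 0.06, with 10 estimates above 0, 3 genes higher and 1 lower. The 7 nuclear core subunits, which carry the flavin and the iron-sulfur clusters, had a median of 0.05, against 0.15 for the 28 accessory subunits. Ndufa2 had the highest mean normalized count of the complex (3727) and a log2 fold change of 0.06 ± 0.15. The difference between arms was not tested, because subunits are not replicates.

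**Figure D2:**
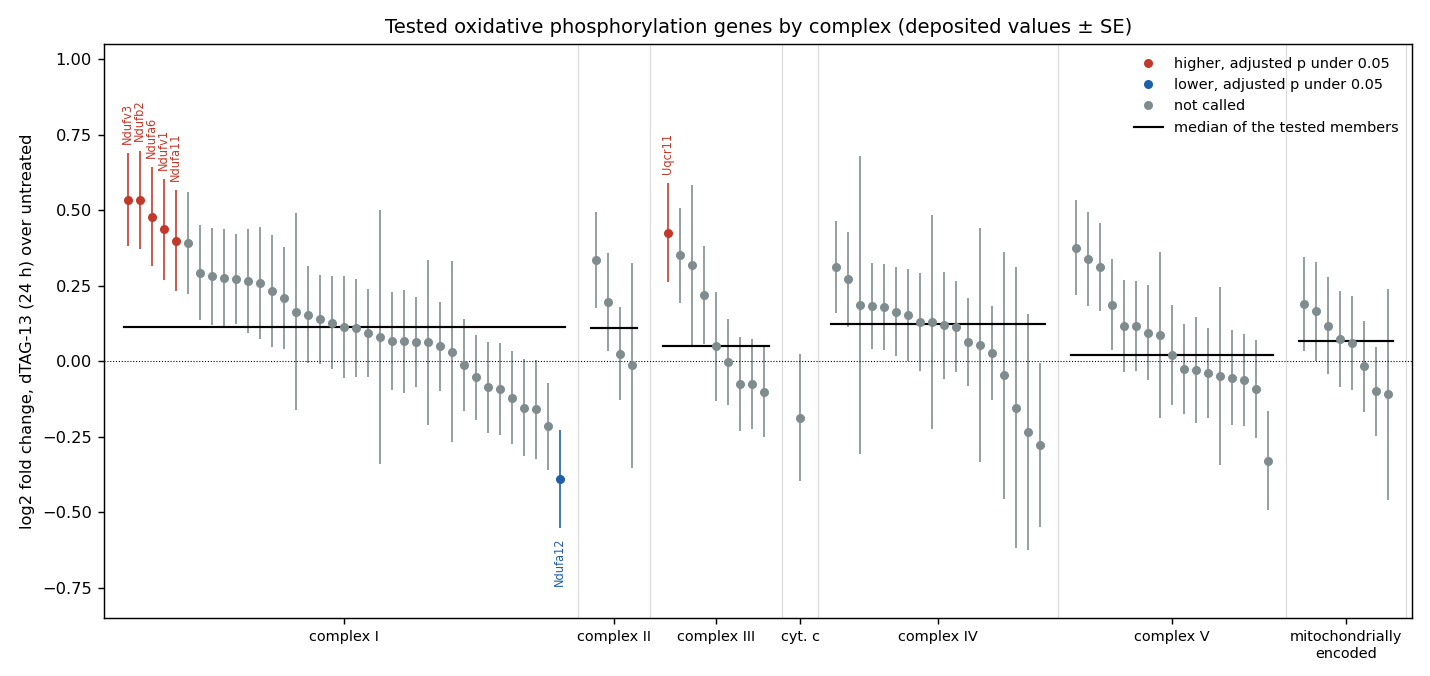
Points are the deposited log2 fold changes (dTAG-13 at 24 h against untreated cells) with their SE for all tested oxidative phosphorylation genes, sorted within each complex, with the median as a black line. Called genes are 5 higher and 1 lower in complex I and Uqcr11 in complex III, and the medians of the complexes lie between 0.02 and 0.12.

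Complex II is the link between the tricarboxylic acid cycle and the chain, and 0 of its 4 genes were called, with 1 gene at p under 0.05 before adjustment by the authors' DESeq2 test. That gene was Sdhc, a membrane anchor, at 0.33 ± 0.16 (adjusted p = 0.0987), called higher from the housekeeping zero point (adjusted p = 0.00516). Sdhb, the iron-sulfur subunit, was at 0.20 ± 0.16, and Sdha, the flavoprotein that oxidises succinate, at 0.02 ± 0.15. Sdhd, the other anchor, was at −0.01 ± 0.34, with an SE about as large as those of genes with far lower counts although its mean normalized count was 417.

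In complex III, 1 of 9 genes rose and 0 fell, with a median of 0.05. Uqcr11 (ENSMUSG00000020163.12, chromosome 10, 80402997 to 80406830), a small membrane subunit, rose by 0.42 ± 0.16 on the log2 scale, 1.34-fold (adjusted p = 0.0306). Uqcrh, the acidic hinge protein at the cytochrome c site and the gene with the highest mean normalized count of the complex (3624), had a log2 fold change of 0.35 ± 0.16 (adjusted p = 0.0734 in the authors' DESeq2 test, and called higher from both other zero points). Of the genes of redox-active subunits, Uqcrfs1 for the Rieske protein had 0.22 ± 0.16 (called higher from the housekeeping zero point, adjusted p = 0.0425), and Cyc1 for cytochrome c1 had the lowest estimate of the complex, −0.10 ± 0.15. Cycs, which encodes the electron carrier cytochrome c itself, had −0.19 ± 0.21 and was not called.

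For complex IV, 0 of 18 tested genes, the pseudogene Cox6c2 included, were called in the authors' DESeq2 test and 2, Cox6a1 and the weakly listed Cox7b2, had p under 0.05 before adjustment, both with positive estimates. Its 11 genes whose mean normalized count reached 100 all had estimates above 0, between 0.03 and 0.31. At that level 55 of the 80 oxidative phosphorylation genes did, against 44.8% of all genes. Cox6a1 was the highest of the complex at 0.31 ± 0.15 (adjusted p = 0.114), followed by Cox5b at 0.27 ± 0.16. Cox5a was the lowest at −0.28 ± 0.27. It is not among the 11 genes above, because its mean normalized count of 87.1 fell just short of 100. Cox4i1, whose product joins the assembling core early, had 0.18 ± 0.14, and Cox7a2 had 0.18 ± 0.14. Cox6c had the highest mean normalized count, 6712, and a log2 fold change of 0.06 ± 0.14. Cox6a1, Cox5b, Cox4i1 and Cox7a2 passed as higher with the housekeeping genes as the zero point (adjusted p between 0.00548 and 0.0377).

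Several subunits of complex IV, and the c ring of ATP synthase, are encoded by genes with different tissue ranges. Per kb of exon, the widely expressed form held over 99% of the summed mean count for COX4, COX6A, COX6B, COX7B, COX8 and NDUFA4. Cox6a1 had 7050 mean normalized counts per kb, against 24.5 for Cox6a2, the heart and muscle form. Cox4i1 had 2567 per kb, against 0.522 for Cox4i2, the form known from lung and hypoxic cells. Cox6b1 had 3619 per kb, against 7.34 for Cox6b2, known from testis. Cox7b had 1802 per kb, against 3.18 for Cox7b2, and Ndufa4 had 919, against 1.88 for Ndufa4l2, a hypoxia-induced relative. Cox8a had 3617 per kb, while Cox8b and Cox8c were listed at 0. For COX7A, Cox7a2 held 91.4% of the count per kb, Cox7a2l, which encodes a supercomplex factor of the same family, 8.43%, and the muscle form Cox7a1 0.166%. The c subunit is made from 3 genes with the same mature protein, and Atp5g3 held 96.8% of its count per kb, Atp5g1 2.71% and Atp5g2 0.525%. Atp5g2 shares 127 bases at 100% identity with Gm10175, whose mean normalized count of 62.4 was above the 40.5 of Atp5g2. Atp5g1 shares 411 bases at 99.8% with Gm10039 (count 4.99), while Atp5g3 had no such match. What part these copies have in the shares was not tested. Undivided by length, the share of Cox7a2 was 87.3% and that of Atp5g3 93.7%, the scale that applies if the reads came from 3′ ends. None of the tested forms was called. Apart from Cox7a2l, the minor forms in complex IV had mean normalized counts of 16.7 or less. Their SE was 0.39 to 0.49 where tested, and Cox4i2, Cox8b and Cox8c were not tested. The shares pool both groups, so whether these forms switched could not be judged.

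**Figure D3:**
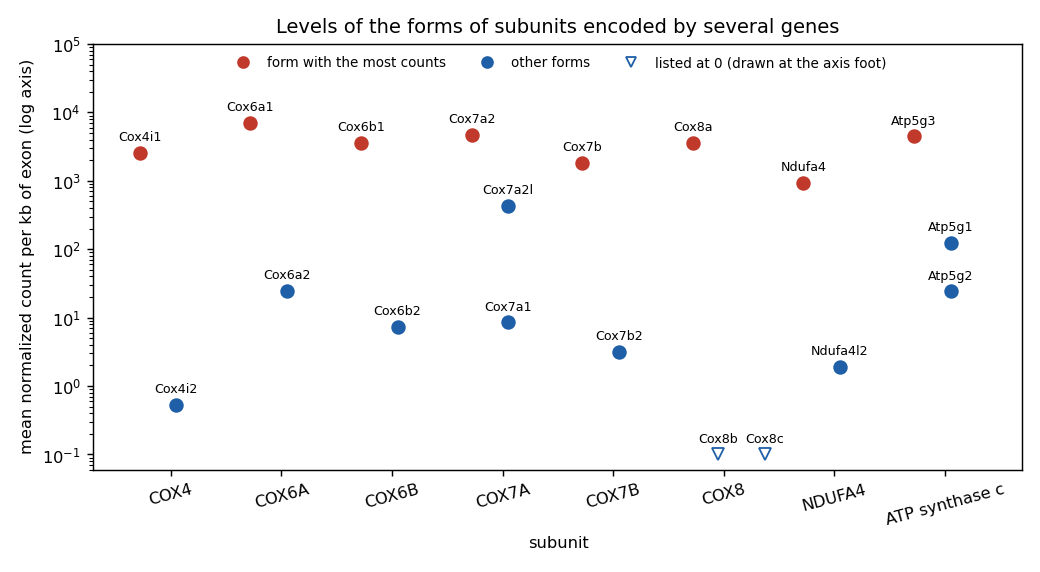
Points give the mean normalized count per kb of exon over both groups, on a log axis, for each form of subunits with several genes. Apart from the COX7A and ATP synthase c families, the form with the most counts stands over 99% of its family, for example Cox6a1 at 7050 and Cox6a2 at 24.5.

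Complex V had the lowest median of the complexes, 0.02, and 0 of its 17 tested genes were called, with 3 positive and 1 negative estimates at p under 0.05 before adjustment by the authors' DESeq2 test. Atp5h, subunit d of the peripheral stalk, was the closest to the threshold at 0.38 ± 0.16 (adjusted p = 0.0522). Atp5mpl, a small proteolipid of the membrane part, had 0.34 ± 0.16, and Atp5k, subunit e, which helps ATP synthase form dimers, had 0.31 ± 0.15. Atp5o, the OSCP subunit that joins the stalk to the head, had 0.19 ± 0.15 under the identifier with counts. At the other end, Atp5j, coupling factor 6 of the stalk, had −0.33 ± 0.16 (adjusted p = 0.112). The 5 genes of the catalytic F1 head had a median of −0.03 and stayed between −0.05 and 0.02, with Atp5b, the catalytic beta subunit, at −0.03 ± 0.15. The c-ring genes Atp5g1, Atp5g2 and Atp5g3 had −0.09 ± 0.16, −0.05 ± 0.29 and −0.06 ± 0.15, and Atp5g3 had the highest mean normalized count of all nuclear members, 9713. Atp5h and Atp5mpl passed as higher from both other zero points, and Atp5k and Atp5o from that of the housekeeping genes.

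The mitochondrial genome encodes 13 of the genes, and 0 of the 8 tested were called by the authors' DESeq2 test, with 0 at p under 0.05 before adjustment. In genome order, mt-Nd1 had a log2 fold change of −0.10 ± 0.15, mt-Nd2 0.06 ± 0.16, mt-Co1 −0.02 ± 0.15 and mt-Nd3 −0.11 ± 0.35. After them, mt-Nd4 had 0.16 ± 0.16, mt-Nd5 0.19 ± 0.16, mt-Nd6 0.07 ± 0.16 and mt-Cytb, the cytochrome b of complex III, 0.12 ± 0.16. Their median was 0.07, against 0.10 for the 86 tested nuclear members. The mt-Nd genes encode complex I, mt-Co genes complex IV and mt-Atp genes complex V; mt-Nd6 is the protein gene read from the other strand, and its estimate lay within the range of the others. The 2 mitochondrial ribosomal RNAs had 0.21 ± 0.16 (mt-Rnr1) and 0.03 ± 0.16 (mt-Rnr2).

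The counts of these genes were uneven. The mean normalized count was 58417 for mt-Nd1, 92840 for mt-Nd2, 136530 for mt-Nd4 and 92621 for mt-Cytb. It was 23030 for mt-Nd6, 17534 for mt-Nd5 and 8153 for mt-Co1. In contrast, mt-Nd3 had 307, mt-Atp6 had 0.147, and mt-Co2, mt-Atp8, mt-Co3 and mt-Nd4l were listed at 0, although these genes are used in every respiring cell. The low or zero genes lay in 1 stretch from mt-Co2 to mt-Nd4l. A stretch of chromosome 1 carries unprocessed pseudogenes that match this region nearly base for base. Over 783 aligned bases Gm28437 matched mt-Co3 at 100% identity, and its mean normalized count was 44.0. Gm10925 matched mt-Atp6 over 678 bases at 100% (count 19.8), Gm28661 mt-Co2 over 681 bases at 100% (count 13.8) and Gm10222 mt-Nd4l over 294 bases at 100% (count 1.69). Gm28438 matched mt-Nd3 over 345 bases at 99.7% (count 9.30). These copies span 99.0% to 99.9% of each of these 5 genes, while the copies of mt-Nd4 and mt-Co1 span 63.6% and 31.3%. For mt-Atp8 no copy passed the search, which covered annotated transcripts only and could not find an unannotated copy. On chromosome 1, Gm10925, the copy of mt-Atp6, ended at 24614651 and Gm28661, the copy of mt-Co2, began at 24614885. The genomic bases between them were not searched. What part the copies have in the low and zero counts was not tested. Together the 13 genes held 4.52% of the summed mean normalized counts, the nuclear members 1.46% and both mitochondrial ribosomal RNAs 3.66%.

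**Figure D4:**
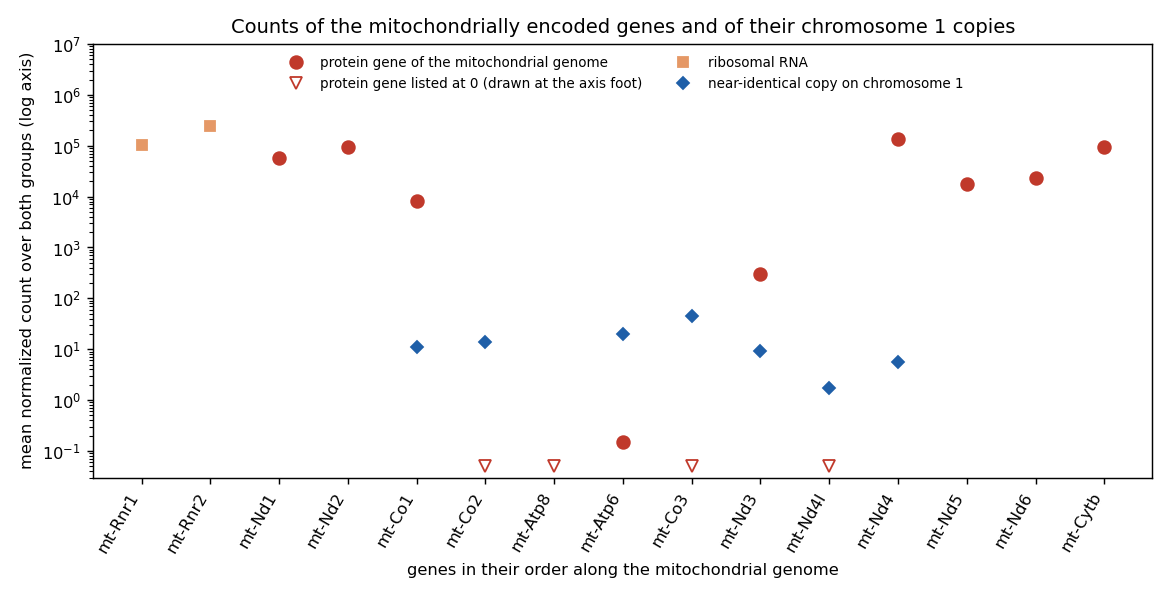
Circles and squares give the mean normalized count over both groups, on a log axis, of the mitochondrial protein and ribosomal RNA genes in genome order; open triangles at the axis foot are genes listed at 0, and diamonds are the near-identical copies on chromosome 1. Counts fall to 0 at mt-Co2, mt-Atp8, mt-Co3 and mt-Nd4l and to 0.147 at mt-Atp6, between mt-Co1 at 8153 and mt-Nd4 at 136530.

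Near-identical sequence elsewhere also touched nuclear members. With at least 75 aligned bases at 98% identity or more, 18 nuclear members had a copy, and their values are uncertain to that extent. The 4 processed pseudogenes among the members, without a coding transcript, were not searched for copies, although Ndufb4 matched Ndufb4c over 390 bases at 100%. Of the called genes, Uqcr11 shared 38.4% of its longest transcript with Gm16418 (mean normalized count 50.7) and Ndufa12 shared 36.2% with Gm15920 (10.9). Atp5h, next to the threshold, shared 71.1% with Gm10250 (395). Exons on the other strand overlapped 27 tested nuclear members, among them 156 bases of Ndufb2 with Gm16272, 70 bases of Ndufa11 with Vmac, and 397 bases of Atp5j with Gabpa, whose log2 fold changes were −0.33 ± 0.16 and 0.38 ± 0.20. The part of either in the calls was not tested. Over the 72 nuclear subunit genes whose mean normalized count reached 100, the log2 fold change had a Spearman rho of −0.14 with exon length and 0.09 with mean count, across genes of the same libraries.

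Because KMT2 enzymes act at promoters, and respiratory genes are known to carry sites for the nuclear respiratory factors NRF1 and GABP (an ETS factor), promoter letters were compared. RefSeq promoters of GRCm38.p6, 250 bases before to 50 after the start, were matched for 68 of the 94 tested genes and 10872 of all tested genes. The 5 shown are the called genes with a match and the gene called lower: Ndufa11 at chr17:56717512-56717811 and Ndufb2 at chr6:39592315-39592614, both on the plus strand, Ndufa6 at chr15:82354242-82354541 and Uqcr11 at chr10:80406772-80407071, both on the minus strand, and Ndufa12 at chr10:94198785-94199084 on the plus strand. They are printed 5′ to 3′ along the gene, with matches to the 4 motifs in capitals.
Ndufa11: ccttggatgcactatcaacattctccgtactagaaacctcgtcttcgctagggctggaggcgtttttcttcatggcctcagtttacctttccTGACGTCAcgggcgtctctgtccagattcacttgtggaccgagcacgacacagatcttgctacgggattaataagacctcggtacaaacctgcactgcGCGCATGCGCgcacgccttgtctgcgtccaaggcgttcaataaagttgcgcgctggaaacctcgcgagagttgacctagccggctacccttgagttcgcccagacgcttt
Ndufb2: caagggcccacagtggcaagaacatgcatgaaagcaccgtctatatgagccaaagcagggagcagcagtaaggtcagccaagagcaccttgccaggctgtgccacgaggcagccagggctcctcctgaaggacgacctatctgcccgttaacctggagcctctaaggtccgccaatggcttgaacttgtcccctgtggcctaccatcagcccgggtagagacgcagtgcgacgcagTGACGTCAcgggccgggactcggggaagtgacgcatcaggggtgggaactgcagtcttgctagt
Ndufa6: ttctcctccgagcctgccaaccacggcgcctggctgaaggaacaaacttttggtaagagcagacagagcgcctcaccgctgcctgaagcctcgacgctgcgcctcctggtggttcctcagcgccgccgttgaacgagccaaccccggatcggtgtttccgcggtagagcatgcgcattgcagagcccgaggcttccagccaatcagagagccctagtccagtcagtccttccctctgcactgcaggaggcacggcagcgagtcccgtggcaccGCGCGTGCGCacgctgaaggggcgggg
Uqcr11: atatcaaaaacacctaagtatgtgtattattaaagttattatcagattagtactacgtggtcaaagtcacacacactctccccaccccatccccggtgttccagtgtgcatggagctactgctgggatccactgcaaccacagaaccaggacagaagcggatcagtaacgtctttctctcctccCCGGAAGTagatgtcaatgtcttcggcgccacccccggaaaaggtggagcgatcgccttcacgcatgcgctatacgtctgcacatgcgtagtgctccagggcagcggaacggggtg
Ndufa12: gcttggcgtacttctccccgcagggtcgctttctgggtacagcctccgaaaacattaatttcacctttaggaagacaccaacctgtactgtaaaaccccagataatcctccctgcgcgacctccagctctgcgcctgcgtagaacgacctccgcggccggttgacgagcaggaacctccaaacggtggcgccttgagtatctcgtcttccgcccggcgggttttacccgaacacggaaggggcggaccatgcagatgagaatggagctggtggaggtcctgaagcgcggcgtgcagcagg

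Ndufa11 and Ndufb2 share the 8 letters TGACGTCA, the cAMP response element, which reads the same on both strands. Ndufa11 also holds GCGCATGCGC and Ndufa6 GCGCGTGCGC, both forms of the NRF1 letters, GCGCA and GCGC with any base between, or GCGC and TGCGC with any base between on the other strand, and Uqcr11 holds CCGGAAGT, the ETS letters, in the gene's own direction. The Ndufa12 window holds none, nor do those of Ndufv1 and Ndufv3. All motifs were searched on both strands, and a match is a description of letters, not a site. NRF1 letters were in 17 of 68 promoters (25%), against 10.9% of tested genes and 5.19% of all 27025 genes with a promoter. YY1 letters (AANATGGC, or GCCATNTT on the other strand) were likewise in 17 of 68, against 9.72% of tested genes and 6.96% of all. ETS letters (CCGGAAGT or ACTTCCGG) were in 5 of 68 (7.35%), against 8.57% of tested genes and 4.31% of all. The response element was in 5 of 68 (7.35%), against 3.53% of tested genes and 2.03% of all. No motif overlapped another in the windows shown. Among the 6 genes called higher, 2 had NRF1 letters, 2 the response element, 1 ETS letters and 0 YY1 letters. Among the 61 genes that were not called, these counts were 15, 3, 4 and 17. The median number of CpG in the window was 19 for the 68 genes, against 22 for tested genes.

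Genes of the related lists had larger single changes than the subunits, with called estimates between −1.27 and 1.09 on the log2 scale. The lists were chosen whole, and their counts are read against the 19.9% of all tested genes called. Among 17 complex I assembly factors, 3 fell and 0 rose: Ndufaf6 by 0.77 ± 0.25, Tmem126a by 0.76 ± 0.18 and Ndufaf4 by 0.42 ± 0.17 on the log2 scale (adjusted p = 0.00430, 9.19e-05 and 0.0373). Ndufaf4 was not called from either other zero point (adjusted p = 0.0697 and 0.264), and from the housekeeping one 3 of these factors were higher and 2 lower. Of the 4 complex II assembly factors 2 rose, Sdhaf3 by 1.09 ± 0.30 and Sdhaf1 by 0.60 ± 0.19, both of which help insert the iron-sulfur clusters of Sdhb. For complex III, 0 of 6 assembly factors were called, with 1 gene at p under 0.05 before adjustment by the authors' DESeq2 test. For complex IV, 1 of 18 tested factors rose and 1 fell: Cox19, a copper-handling factor, was at 0.81 ± 0.18 (adjusted p = 3.65e-05) and Coa3, which stabilises newly made mt-Co1 protein, at −0.89 ± 0.20 (adjusted p = 4.54e-05). Another 4 factors of this list, Cox11, Cox20, Pet117 and Sco2, were listed at 0. Of 5 ATP synthase assembly factors, Fmc1 rose by 0.95 ± 0.17 (adjusted p = 1.37e-07).

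Among the nuclear regulators, 3 of 8 tested genes fell and 0 rose. Gabpb2, which encodes a beta subunit of GABP, was at −0.59 ± 0.19 (adjusted p = 0.00676), Pprc1, a coactivator of the PGC-1 family, at −0.54 ± 0.22 and Ppargc1b, PGC-1 beta, at −1.27 ± 0.88 with a mean normalized count of 16.1. The wide error of Ppargc1b belongs to the shrunken estimate, and its adjusted p of 0.0383 in the authors' DESeq2 test does not follow from that estimate and error. Ppargc1a, the founding member of that family, had a mean normalized count of 0.713 and was not tested. With the housekeeping genes as the zero point none of the 3 was called lower (adjusted p = 0.0705, 0.148 and 0.0556), and 1 regulator, the GABP alpha gene Gabpa, was called higher. Nrf1, which encodes NRF1, was at −0.43 ± 0.19 (adjusted p = 0.0574 in the authors' DESeq2 test). It was not called there or from either other zero point (adjusted p = 0.0969 and 0.293). For replication and transcription of mitochondrial DNA, 0 of 13 tested genes were called, with 1 gene at p under 0.05 before adjustment by the authors' DESeq2 test. The tricarboxylic acid cycle, which feeds the chain, also had 0 of 16 called, with 3 at p under 0.05 before adjustment. Of 17 genes for ubiquinone and its other electron donors 1 rose, Coq7, a hydroxylase of ubiquinone synthesis, by 0.58 ± 0.20 (adjusted p = 0.0114). Of 6 genes for exchange of ATP, ADP and phosphate, Slc25a5, an ATP/ADP carrier, fell by 0.51 ± 0.20 (adjusted p = 0.0250), and this call was lost with the housekeeping genes as the zero point (adjusted p = 0.161).

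**Figure D5:**
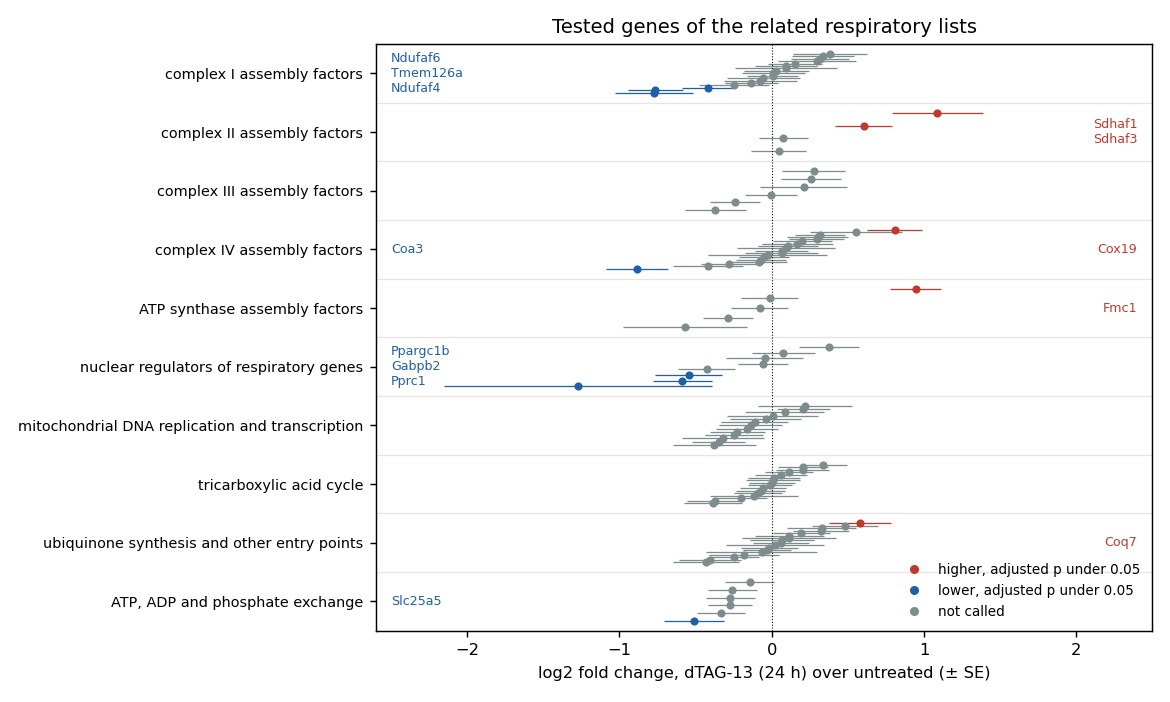
Points are the deposited log2 fold changes (dTAG-13 at 24 h against untreated cells) with their SE for all tested genes of 10 respiratory lists, and the called genes are named at the left (lower) or right (higher) edge. Sdhaf3 at 1.09 and Fmc1 at 0.95 are the highest called, and Ppargc1b at −1.27 the lowest.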

How the data were processed

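RNA of 6 libraries was measured, 3 per group by the labels. According to the methods of the study, reads were trimmed with Trim Galore, aligned to mm10 with STAR and assigned to genes with featureCounts, versions not given in the sources used here. A stranded kit for total RNA is named in the labels and a 3′ mRNA kit in the methods, so strand and captured part are uncertain. The deposited signal is the authors' mean read count after ERCC spike-in scaling, over both groups. The deposited log2 fold change was shrunk by the authors with apeglm, and the deposited standard error belongs to it. The deposited p-value is from the authors' DESeq2 test, adjusted by the Benjamini-Hochberg method after their filter. These comparison columns were used as the authors' own values, since the table has no columns per library and no fit could be made here. The authors' separate lists of higher and lower genes were not used. The labels' treatment protocol names shorter times, and 24 h comes from the sample titles. Where nothing says that libraries came from separate cultures, p-values measure only the spread between libraries.

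Genes were chosen by symbol, and the members and lists were chosen with earlier results of these data known. Named are all called members, the lowest, highest and most counted member of each complex, all mitochondrially encoded members, isoform pairs and c-subunit genes, complex II, members whose call changes with the zero point, and up to 3 called genes per direction in each related list, with further genes named after their values were seen. Intervals are log2 fold change ± 1.96 SE. A moved zero point, divided by the deposited SE of the shrunken estimate, was subtracted from the signed z of the deposited p-value. Adjustment was over all 16773 tested genes. The deposited p-value does not follow from the shrunken estimate and its SE, so the calls from a moved zero point are approximate. Simulated data, in which p-value and SE were on the same scale, tested the arithmetic only and cannot show how far this matters. Positions and exon lengths came from GENCODE M21 (GRCm38). Near copies were found with BLAST+ 2.17.0, with the longest coding transcript of each gene searched against the annotated transcripts of other genes. The genome itself was not searched. Computations used pandas 2.3.3, scipy 1.17.1 and numpy 2.4.6 under Python 3.11.15, and figures matplotlib 3.10.9.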

Additional observations from a re-analysis of the deposited data

How the results depend on the processing

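No paired analysis was possible because values of single libraries are not in the table, and for the same reason no library could be left out in turn. Of the 94 tested genes, 7 were called. A threshold of 0.1 called 13 (complex II 1, III 2, V 3), one of 0.01 called 2 (both complex I, III 0), and p under 0.05 without adjustment 17 (complex II 1, III 2, IV 2, V 4). Of all tested genes, 25.0% were called at 0.1 and 13.5% at 0.01. Without adjustment 12.0% of them were higher and 17.9% lower. With the median of genes reaching a mean count of 100 as the zero point, complexes III and V had 2 called each. The tricarboxylic acid cycle had 1 of 16 and the ubiquinone list 2 of 17, while 8.50% of all tested genes were higher and 11.2% lower. With the housekeeping zero point 24 were called: 12 in complex I, 1 in II, 3 in III, 4 in IV and 4 in V. The medians then were 0.30, 0.30, 0.24, 0.31 and 0.21 for complexes I to V and 0.25 for mitochondrially encoded genes, a shift that the move of the zero point makes by itself. In the related lists, the housekeeping zero point called 5 of 17 complex I and 6 of 18 complex IV assembly factors. It also called 1 of 8 regulators, 1 of 16 tricarboxylic acid cycle genes, 3 of 17 in the ubiquinone list and 0 of 6 in the exchange list. Over all tested genes it called 13.8% higher and 8.84% lower. Testing only genes that reached a mean count of 100 called 9 of 80 genes, 1 of them in complex V, against 29.9% of all such genes. Adjustment over every gene with a p-value called 5 of 97, against 12.4% of all such genes, without Ndufa11 (adjusted p = 0.0714) and Ndufa12 (0.0718). Chosen after seeing the data, leaving out the processed pseudogenes kept the count at 7, of 91 tested. The authors' spike-in scaling, the unknown depth per library and the uncertain number of libraries limit all of these values.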
